A study of Mus musculus with 6 samples.

Results

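The genes described here are the mouse zinc finger protein genes whose symbol is Zfp followed only by digits. They were selected on the scaled read count itself, which had to reach 50 in 3 or more of the 6 libraries. That rule kept 226 of the 310 numbered Zfp genes in the table, which has 15035 rows in all. The RNA came from mouse leukemia cells: BALB/c bone marrow cells in which retroviruses express mutant CSF3R (the G-CSF receptor) and mutant CEBPA (a transcription factor of myeloid cells). Both groups carried the 2 mutant genes, were grown in serum-containing IMDM and were treated for 48 h, one with DMSO, the solvent, and the other with 4 nM GSK-LSD1, which blocks LSD1, a demethylase of histone H3. Each group had 3 libraries, and the comparison asks which transcripts differ after the inhibitor. The exact alleles, the virus and the number of clones or animals are not given in the labels. The labels leave it unsaid whether replicate libraries were separate cultures, and the p-values cover only the variation among these libraries, which could be technical.

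Zinc finger proteins carry short folds that each hold a zinc ion. In the C2H2 type, arrays of fingers read DNA, and the number and order of the fingers set which sequence is bound. The largest class joins such an array to a KRAB domain, which binds TRIM28, a scaffold for histone deacetylase, heterochromatin protein and histone H3 lysine 9 methyltransferase, and KRAB genes are known for lying in tandem clusters and for silencing mobile elements. Other members of the family bind RNA, or recruit corepressors such as CtBP, CoREST and LSD1 itself.

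The rule chose genes by their level and used both groups, so the direction of change is given below as a description of these libraries. Of the 226 genes, 208 were at 50 or more in all 6 libraries, 16 in some libraries of both groups and 2, Zfp658 and Zfp382, in GSK-LSD1 libraries only. Just inside the cutoff lay Zfp873, Zfp382 and Zfp583, whose third-highest values were 50.7, 52.0 and 52.8. Just outside lay Zfp772, Zfp111 and Zfp184, at 49.5, 48.7 and 48.6. The recovered depth was 9572638 to 10199533 reads per library, with 1 read worth 0.973 to 1.04 scaled counts, so a value of 50 rests on about that many reads. Markers of myeloid cells were all present (12 of 12, at mean values of at least 10), as were those of mast cells and basophils (6 of 6). Of the 12 myeloid markers 7 were higher and 3 lower (Elane, Prtn3 and Ctsg), and of the 6 mast cell and basophil markers 3 were higher and 1 lower (Fcer1a), with Cpa3 going from 14320 to 23028. The summed myeloid markers were 17231 to 18825 with DMSO and 20846 to 21651 with GSK-LSD1, and the summed mast cell and basophil markers 28564 to 30643 and 37191 to 38611. Summed erythroid markers were 94.7 to 130 with DMSO and 5.10 to 10.4 with GSK-LSD1. Summed megakaryocyte markers were 1892 to 2029 and 1670 to 1731, and stromal markers 3782 to 4256 and 4674 to 4776. T cell markers summed to 254 to 284 and 231 to 254, with Cd3e and Trac not analysed here, and B cell markers to at most 5.10 in any library. The T cell sum was mainly Cd247 and Lck, at means of 147 and 102, with Cd3g at 6.99 and Cd3d at 0.495. The part of these shifts in the results below was not tested. In bulk RNA a change in the share of cells that express a gene and a change in RNA per cell cannot be told apart.

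A pair of promoters is shown before the values because their genes, Zfp760 and Zfp946, lie in the same KRAB cluster on chromosome 17 and had the largest rises there. Each sequence is the 250 bases before the transcription start in RefSeq (build GRCm38.p6, plus strand), at chr17:21707491-21707740 and chr17:22423952-22424201. The capitals mark a run of 14 bases that both share.
Zfp760: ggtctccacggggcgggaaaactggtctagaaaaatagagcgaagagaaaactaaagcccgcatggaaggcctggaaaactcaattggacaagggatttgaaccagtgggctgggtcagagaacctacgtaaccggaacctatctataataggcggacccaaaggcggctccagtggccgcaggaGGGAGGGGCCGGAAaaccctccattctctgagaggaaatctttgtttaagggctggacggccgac
Zfp946: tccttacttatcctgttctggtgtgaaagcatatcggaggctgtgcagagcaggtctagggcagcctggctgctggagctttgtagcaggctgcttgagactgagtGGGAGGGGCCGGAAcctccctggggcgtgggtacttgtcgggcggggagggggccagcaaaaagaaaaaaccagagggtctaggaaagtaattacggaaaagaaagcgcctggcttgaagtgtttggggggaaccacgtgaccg
The run GGGAGGGGCCGGAA starts 65 bases before the start of Zfp760 and 144 bases before that of Zfp946. It was noticed after the sequences had been read. It was taken as the longest run that the 2 printed promoters share. Searched on both strands, it occurred in 2 of 27025 promoters of this length, 0.0074%. These 2 are the printed pair, so the count is no independent support for a shared element. Of the 15 members in that cluster, 13 had a promoter in the table. A match is a description of letters and not evidence of a binding site.

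With GSK-LSD1, 50 of the 226 numbered Zfp genes were higher, 11 were lower and 165 missed the threshold of 0.05 by limma, with p-values adjusted after Benjamini-Hochberg across the 11588 genes tested. The higher share, 22.1%, was near the 20.6% of all genes tested that were higher, and the lower share, 4.87%, stood beside 20.5% of all genes. In either direction 41.1% of all genes tested were called, and 43.1% of the 9952 genes at the members' level. The 50 include Zfp658, whose difference follows from the rule. Among the genes at 50 or more in all 6 libraries, 46 of 208 were higher and 11 lower. The split depended on scaling: rises were 82.0% of the members' calls as deposited and 58.3% after quantile scaling, which gave 35 higher and 25 lower, beside 2094 higher and 2618 lower over all genes. The median log2 fold change of the members was 0.11 as deposited and 0.02 after quantile scaling, beside -0.01 and -0.05 for all genes tested.

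Most shifts were small. Of the 226 genes, 152 (67.3%) had a log2 fold change above 0, against 48.8% of all genes tested. An unadjusted p under 0.05 (limma) was found for 77 of the 226, and for 5613 of the 11588 genes tested. Groups did not overlap for 66 of the 226 genes that were higher in every GSK-LSD1 library and for 17 that were lower in every one. Over all 11588 genes tested, these counts were 2859 (24.7%) and 2876 (24.8%). The 66 include Zfp658 and Zfp382, and among the 208 genes at 50 or more in all 6 libraries the counts were 60 and 17. A change of at least 1.5-fold was found for 8 of the 226 genes upward and none downward, and of at least 2-fold for 3 upward. Of all 11588 genes tested, 1015 changed at least 1.5-fold upward and 326 downward, and 524 at least 2-fold upward. The members' counts of 8 and 3 include Zfp658, which follows from the rule. Among the 208 genes at 50 or more in all 6 libraries the upward counts were 6 and 2. The members together took 0.723% to 0.757% of the total value in the DMSO libraries and 0.794% to 0.803% in the GSK-LSD1 libraries. The ranked plot of fold changes shows a long flat middle and a short upper tail.

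**Figure D1:**
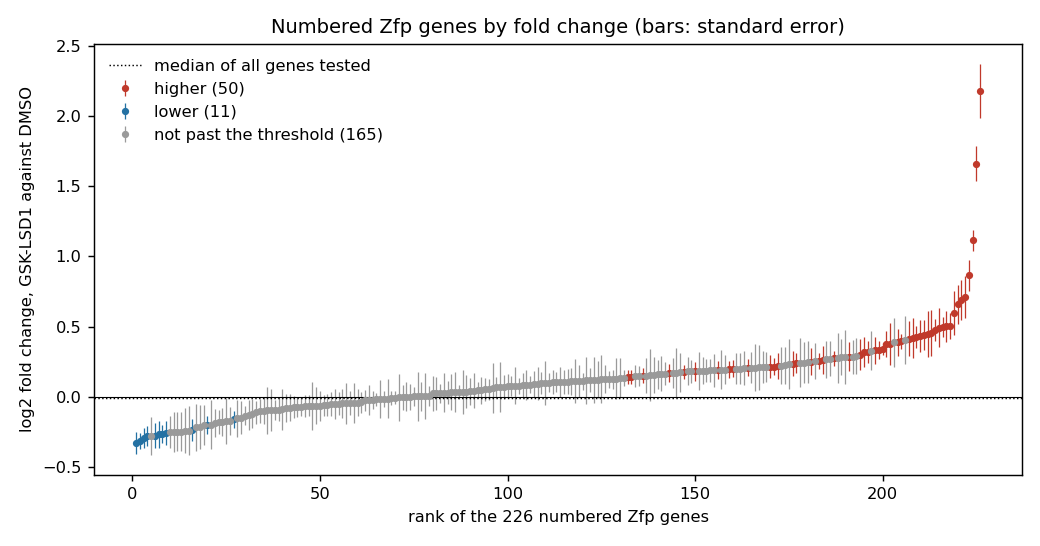
Log2 fold change (GSK-LSD1 against DMSO, vertical axis) of the 226 numbered Zfp genes in rank order (horizontal axis), with bars for the standard error and a dotted line at the median of all genes tested. The lowest gene sits at -0.33 and 3 genes lie above 1. The highest point, at 2.18, is Zfp658, whose difference follows from the rule and is not read as a test result. The next is Zfp516 at 1.66.

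The largest rise among genes past the cutoff in both groups was that of Zfp516 (chromosome 18, 82910663 to 83005314, GRCm38), which encodes a C2H2 protein known to bind CtBP, CoREST and LSD1. Its values were 63.5, 84.2 and 63.7 in the DMSO libraries and 217, 213 and 240 in the GSK-LSD1 libraries. Every treated library was above every control. The mean rose 3.17-fold, from 70.5 ± 11.9 to 224 ± 14.7 (SD, n = 3 per group here and below), and on the log2 scale the change was 1.66 (SE 0.124, adjusted p = 1.32e-13, limma). Next came Zfp36 (chromosome 7, 28376784 to 28380253), the gene of tristetraprolin, a CCCH protein that binds AU-rich elements and speeds the decay of cytokine mRNAs. It was at 271, 272 and 235 with DMSO and at 549, 585 and 554 with GSK-LSD1. The groups stood far apart, with a 2.17-fold rise and a log2 fold change of 1.12 (SE 0.0757, adjusted p = 1.09e-14, limma). An exon of the gene model Gm44710 overlaps Zfp36 on the other strand, and the strand setting of the counts is not given in the sources used here.

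Among genes with a KRAB domain, Zfp760 (chromosome 17, 21707741 to 21725636) had the largest rise of those past the cutoff in both groups. Its DMSO libraries were at 142, 107 and 106 and its GSK-LSD1 libraries at 204, 219 and 218. Groups did not overlap, and the log2 fold change was 0.86 (SE 0.113, adjusted p = 1.00e-07, limma). Zfp383 rose from 58.6 ± 5.96 to 96.6 ± 10.2, Zfp946 from 68.5 ± 3.71 to 112 ± 23 and Zfp950 from 86.6 ± 8.94 to 139 ± 27.7, with log2 fold changes of 0.71, 0.69 and 0.66. These 3 are KRAB genes with 11, 11 and 17 fingers. The KRAB gene Zfp90 rose 1.51-fold, and Zfp277, Zfp27 and Zfp260 rose by log2 fold changes of 0.51, 0.50 and 0.50. Zfp260, a zinc finger factor described in heart muscle, was the most abundant of these and went from 432 ± 34.4 to 608 ± 29.4. Lack of overlap between groups was part of the rule that picked these 10 genes, so it is no separate result. The same holds for the 10 falls named below.

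Zfp658 (chromosome 7, 43562256 to 43575461) is a KRAB gene with 21 fingers that entered only through its treated libraries. Its difference follows from the rule, so no test result is printed for it. The fit did include it, and it is part of the counts of higher members, higher KRAB genes and calls kept. The counts of higher members in clusters, by range of mean values and with a promoter hold it too. It was at 17.6, 21.8 and 17.9 with DMSO and at 107, 81.8 and 82.7 with GSK-LSD1. The 2 groups lay 4.74-fold apart in their means, the widest gap of the 226 genes. Zfp382, the other such gene, was at 49.8, 41.6 and 41.8 with DMSO and at 52.0, 54.9 and 54.5 with GSK-LSD1. Its groups were near the cutoff on either side.

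Falls were shallow. Zfp64 (chromosome 2, 168893331 to 168955587), known as an activator of the MLL gene promoter, was at 388, 394 and 379 with DMSO and at 339, 289 and 297 with GSK-LSD1. All 3 treated libraries were below all 3 controls, with a log2 fold change of -0.33 (SE 0.0780, adjusted p = 0.000760, limma). Zfp35 (chromosome 18, 23989632 to 24005376), with 16 fingers, fell from 910 ± 21.2 to 729 ± 33.8, and its log2 fold change was -0.32. Smaller falls were found for Zfp639 (-0.29), Zfp574 (-0.28), Zfp593 (-0.28), Zfp850 (-0.27), Zfp335 (-0.27), Zfp654 (-0.26), Zfp367 (-0.24) and Zfp219 (-0.16). Zfp593 encodes a nucleolar protein of ribosome assembly, and Zfp335 a factor needed in neural progenitors and T cells. Zfp598 was the only lower gene whose groups overlapped, and it is described with the cofactor partners below. The plot of single libraries shows the upper and lower sets side by side.

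**Figure D2:**
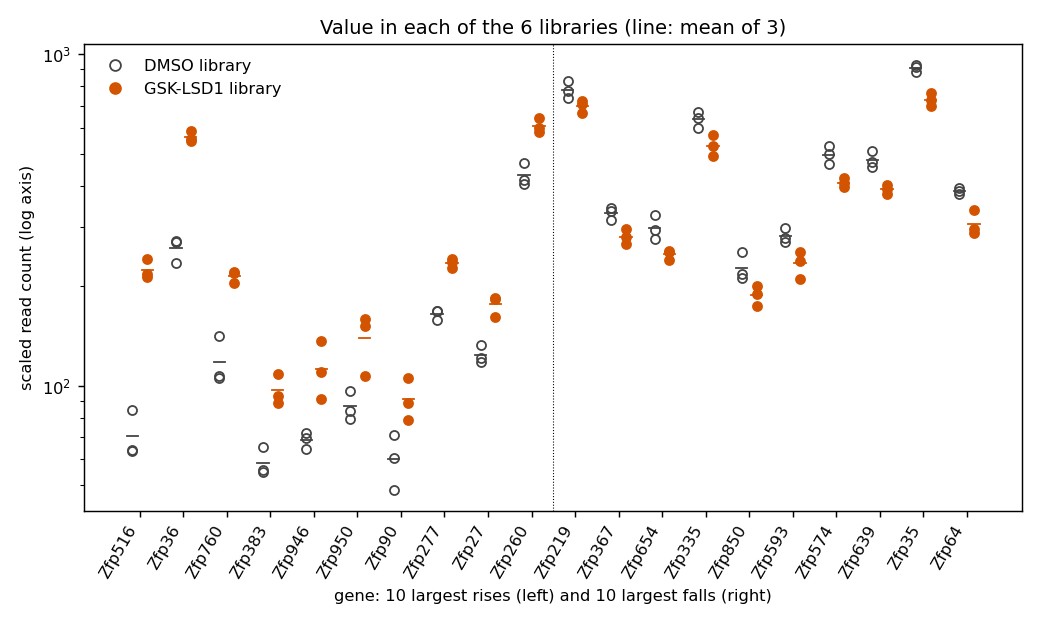
Scaled read count (log axis) in each of the 6 libraries for numbered Zfp genes past the cutoff in both groups, so without Zfp658: the 10 largest rises (left of the dotted line) and the 10 largest falls without overlap (right), with open circles for DMSO, filled circles for GSK-LSD1 and a line at each mean of 3. The means of Zfp516 are 70.5 and 224, while those of Zfp64 are 387 and 308.

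The 10 rises named above were the largest of 50 higher calls, and the 10 falls were nearly all of 11 lower calls. How well these sets kept their calls thus depends on that choice. The 10 largest rises each kept their direction and call in all 17 alternatives of scaling, filter, model or left-out library, as did Zfp64, Zfp35, Zfp639, Zfp574 and Zfp335 among the falls. Over all members, 23 of the 50 higher calls and 5 of the 11 lower calls were kept in every alternative. Without single libraries the higher count was 37 to 51 and the lower count 7 to 12. The lower count was 7 without GSK-LSD1 replicate 2, fewer than the 11 of all libraries by over 1.5 times.

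Of 11 members on a list of known partners of LSD1, CoREST, CtBP, NuRD, histone methyltransferases, SUMO or ubiquitin, 3 were higher, 2 lower and 6 neither, with a median log2 fold change of 0.03. For all genes tested the shares were 20.6% higher and 20.5% lower. Besides Zfp516, the rises were those of Zfp217, a component of CtBP and CoREST complexes, from 1437 ± 61.1 to 1582 ± 35.2, and of Zfp644, a partner of the methyltransferases G9a and GLP, from 469 ± 13.9 to 528 ± 27.4. They lost their call in 4 and 7 alternatives, with adjusted p up to 0.104 and 0.155. Zfp639 fell from 480 ± 28.6 to 391 ± 12. Zfp598, a ubiquitin ligase that acts on collided ribosomes, was at 1243, 1207 and 1009 with DMSO and at 1018, 927 and 1048 with GSK-LSD1. The lowest control was thus below 2 treated libraries, and its log2 fold change of -0.20 (adjusted p = 0.00891, limma) lost its call in 4 alternatives. Zfp592 and Zfp687, which form a complex linked to NuRD, were at 1024 ± 104 and 1115 ± 54.4, and at 669 ± 58.8 and 658 ± 28.1. Zfp451, a SUMO ligase, Zfp91, Zfp131 and Zfp410, a selective activator of Chd4, had log2 fold changes of -0.03, 0.03, 0.09 and -0.07.

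All 10 genes on the list for RNA, spindle and ribosome roles were members, and 5 of them were higher, none lower and 5 not past the threshold. The list is short, and over all genes tested 20.6% were higher and 20.5% lower. Zfp106, which encodes an RNA-binding protein needed in motor neurons, was at 4323, 3957 and 4239 with DMSO and at 5208, 5258 and 5388 with GSK-LSD1. The groups were well apart and the log2 fold change was 0.34 (SE 0.0442, adjusted p = 7.91e-08, limma), although an exon of the gene model Gm26899 overlaps it on the other strand. Zfp326, which couples transcript elongation to splicing, rose from 297 ± 17.4 to 370 ± 10.3. Zfp318, needed for the alternative processing that yields IgD in B cells, rose from 188 ± 21.8 to 235 ± 11.4. Zfp638, a nuclear RNA-binding protein that also silences unintegrated retroviral DNA, rose from 1299 ± 19.9 to 1431 ± 32.1. The call of Zfp638 was lost in 5 alternatives and that of Zfp318 in 1, without DMSO replicate 2. Zfp207, which binds spindle microtubules, was at 4726 ± 95.9 and 4706 ± 189, and Zfp706 at 2201 ± 48.9 and 2172 ± 11. These were, with Zfp106, the members with the highest mean values. The double-stranded RNA binding gene Zfp346 was at 293 ± 22.1 and 257 ± 2.63 (log2 fold change -0.18, adjusted p = 0.0810, limma). The ribosome maturation gene Zfp622 and Zfp830 had log2 fold changes of 0.00 and 0.03.

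Among 12 members listed as promoter or enhancer factors outside the KRAB class, 4 were higher, 2 lower and 6 neither, with a median of 0.07. All genes tested gave 20.6% higher and 20.5% lower. Zfp740 was at 1142, 1001 and 980 with DMSO and at 1404, 1352 and 1339 with GSK-LSD1. No treated library reached down to a control, and the log2 fold change was 0.39 (SE 0.0559, adjusted p = 4.66e-07, limma), with exons of Csad on the other strand. Zfp148, which binds GC-rich promoters, rose from 922 ± 20.6 to 1116 ± 43.5, Zfp800 from 655 ± 14.5 to 783 ± 19.2 and Zfp292 from 737 ± 47.0 to 842 ± 46.8. The call of Zfp292 was lost in 3 alternatives, with adjusted p up to 0.0856. The 2 lower genes were Zfp64 and Zfp335, given above. Zfp143, a promoter factor of snRNA and protein-coding genes, was at 266 ± 21 and 279 ± 19.8. The pluripotency factor gene Zfp281 had a log2 fold change of 0.15 (adjusted p = 0.0815, limma). Zfp384, Zfp703, Zfp608 and Zfp609 had values of -0.01, 0.08, -0.07 and -0.10. From the same list Zfp467 and Zfp503 lay below the cutoff: Zfp467 was at 13.7, 18.8 and 16.9 with DMSO and at 66.3, 42.4 and 56.4 with GSK-LSD1, and Zfp503 at 7.81, 8.92 and 11.9 and at 27.5, 34.2 and 21.4.

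To describe the members by domain, the longest coding transcript of each in GENCODE M21 was searched for a KRAB A-box pattern, a SCAN pattern and C2H2 fingers. Of 224 members with a coding transcript, 117 matched the KRAB pattern, 3 the SCAN pattern only, 95 had C2H2 fingers alone and 9 matched none, such as the CCCH gene Zfp36. The KRAB genes had a median of 12 fingers and the other members 6, and the longest arrays were those of Zfp236 (29 fingers), Zfp646 (28) and Zfp62 (26). KRAB genes were also less abundant, with a median value per kilobase of exon of 27 against 65.8 for the other members. Zfp207 had the highest value per kilobase, 708, followed by Zfp422 at 482 and Zfp106 at 453.

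Of the 117 KRAB genes, 24 were higher, 1 (Zfp850) was lower and 92 were not past the threshold, with a median log2 fold change of 0.15 and 87 values above 0. Their higher share, 20.5%, was near the 20.6% of all genes tested, and their lower share, 0.855%, stood beside 20.5%. Of the 107 members with a coding transcript and no KRAB match, 26 were higher, 10 lower and 71 not past, with a median of 0.06. No test compares the classes here. With quantile scaling the KRAB genes gave 15 higher and 8 lower with a median of 0.01, and the others 20 higher and 17 lower with a median of 0.03. Among KRAB genes at 50 or more in all 6 libraries, 21 of 101 were higher and 1 lower. The summed KRAB transcripts made up 0.184% to 0.191% of the total value with DMSO and 0.206% to 0.209% with GSK-LSD1.

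From a list drawn up as KRAB genes with a known target class, 10 were members, of which 4 were higher, none lower and 6 not past the threshold. The 4 include Zfp277, and the 6 include Zfp382, which was past the cutoff in GSK-LSD1 libraries only. Shares over all genes tested were 20.6% higher and 20.5% lower. The largest changes were those of Zfp90 and Zfp277, given above with log2 fold changes of 0.60 and 0.51, though Zfp277, a partner of Polycomb proteins, has no match to the KRAB pattern. Zfp445, which protects genomic imprints, was at 888, 831 and 817 with DMSO and at 942, 915 and 958 with GSK-LSD1. The groups were narrowly apart, and its log2 fold change of 0.15 (adjusted p = 0.0287, limma) lost its call in 6 alternatives. Zfp113 had a log2 fold change of 0.26 and also lost its call in 6. Zfp809, which silences proviruses at the proline tRNA primer binding site, was at 178 ± 4.17 and 203 ± 23.6 (log2 fold change 0.18, adjusted p = 0.153, limma). Zfp568, a repressor of a placental Igf2 transcript, was at 656 ± 54.1 and 623 ± 53.2. Zfp932, a silencer of endogenous retroviruses, was at 107 ± 9.72 and 119 ± 4.53, and 55.5% of its 50-base words also occur in transcripts of other genes, so its reads may be shared. Zfp87 and Zfp189 had log2 fold changes of 0.19 and -0.24. Zfp57, a protector of imprints, Zfp708 and Zfp30 were below the cutoff. Zfp30 was at 13.7, 9.91 and 11 with DMSO and at 27.5, 15.5 and 19.5 with GSK-LSD1, and its log2 fold change was 0.78 (adjusted p = 0.0392, limma).

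Zfp genes were grouped into clusters where at least 3 numbered Zfp genes of the table followed each other at gaps of at most 500 kb, and 124 of the 226 members lay in a cluster. In clusters, 24 members (19.4%) were higher and 2 (1.61%) lower, with a median log2 fold change of 0.12. The 24 include Zfp658, whose difference follows from the rule. Outside them 26 of 102 (25.5%) were higher and 9 (8.82%) lower, with a median of 0.08. Beside these stood 20.6% higher and 20.5% lower over all genes tested. The largest cluster, Zfp160 to Zfp13 on chromosome 17 (21008903 to 23599487), held 15 members, all KRAB genes. In it 5 were higher, Zfp160, Zfp53, Zfp945, Zfp946 and Zfp760, none was lower, 13 values were above 0 and the median was 0.24. Zfp53 was at 173, 189 and 171 with DMSO and at 240, 217 and 236 with GSK-LSD1, and Zfp945 at 123, 107 and 118 and at 163, 149 and 159. The groups of both were apart. The call of Zfp160 (log2 fold change 0.29) was lost in 6 of the 17 alternatives, among them quantile scaling, DESeq2 and 4 left-out libraries. The neighbours Zfp51, Zfp54 and Zfp943 had log2 fold changes between -0.02 and 0.00, so the genes of the cluster did not share one size of change. These cluster members were named after their values were seen.

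The cluster from Zfp84 to Zfp146 on chromosome 7 (29768552 to 30169750) had 12 members, with 4 higher, Zfp790, Zfp27, Zfp383 and Zfp260, and none lower. Zfp27 was at 118, 121 and 132 with DMSO and at 161, 183 and 183 with GSK-LSD1, and its neighbour Zfp383 at 65.4, 55.5 and 54.7 and at 108, 93.2 and 88.6. Both were higher in every treated library. The call of Zfp790 was lost in 4 alternatives. In the same cluster Zfp420 and Zfp940 had log2 fold changes of 0.00 and 0.04. Of the 11 members in the cluster from Zfp712 to Zfp273 on chromosome 13, only Zfp58 was higher. Its call was lost in 5 alternatives, and 50.2% of its 50-base words also occur in other genes' transcripts. The cluster from Zfp180 to Zfp526 on chromosome 7 had 6 members, none of them higher, 1 lower (Zfp574) and a median of -0.03. The plot of clusters shows that genes past the threshold lay beside genes near 0 in each of them.

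**Figure D3:**
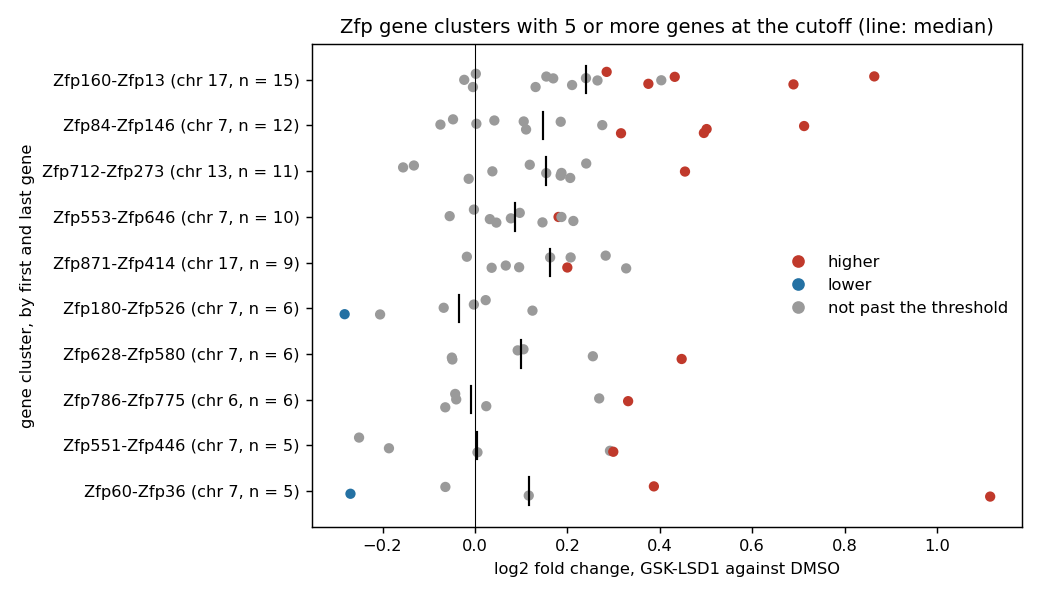
Log2 fold change (GSK-LSD1 against DMSO, horizontal axis) of each member in the 10 gene clusters with at least 5 members (vertical axis, by first and last numbered Zfp gene, with the number of members), coloured by call, with a line at the median. The cluster from Zfp160 to Zfp13 has the highest median, 0.24, and that from Zfp180 to Zfp526 the lowest, -0.03.

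The members' calls were compared with those of all genes in the same range of mean values. With a mean of 50 to 100, 15.5% of 58 members were higher and none lower, against 26.9% and 10.1% of all genes. These higher members include Zfp658, whose difference follows from the rule. At 100 to 200, the values were 21.4% and none of 56 members, against 22.1% and 12.4%. At 200 to 500, they were 17.8% and 9.59% of 73 members, against 18.8% and 18.7%. At 500 or more, 44.4% of 36 members were higher and 11.1% lower, against 18.8% and 30.9% of all genes. The share of higher members was thus at or under that of all genes below 500 and above it in the top range, where Zfp106, Zfp740, Zfp148, Zfp800 and Zfp217 stand. Over the 226 members, Spearman's rho between mean level and log2 fold change was -0.119, a description across genes that share the same libraries.

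**Figure D4:**
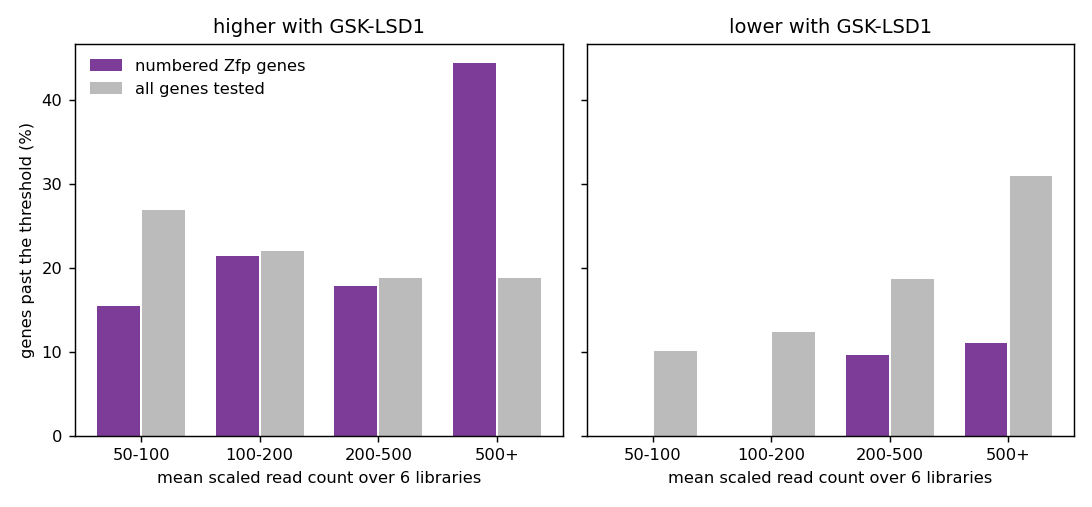
Percent of genes past the threshold (vertical axis, from 0) by mean scaled read count over the 6 libraries (horizontal axis), for numbered Zfp genes (purple) and all genes tested (grey), with higher genes on the left and lower genes on the right. In the top range 44.4% of the numbered Zfp genes and 18.8% of all genes were higher.

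Genes listed for the TRIM28 pathway and related chromatin factors were measured in the same fit. Of 35 tested genes of the TRIM28 pathway, 3 were higher, 10 lower (4 without DMSO replicate 2 or GSK-LSD1 replicate 3, 6 without GSK-LSD1 replicate 2, and 2 in the fit without a trend) and 22 neither, with a median log2 fold change of -0.03. Over all genes tested 20.5% were lower, and 30.9% of those with a mean of 500 or more. Trim28 was at 7296, 7712 and 7241 with DMSO and at 6876, 6884 and 6847 with GSK-LSD1. Its treated libraries were all below its controls, but the log2 fold change was only -0.11 (adjusted p = 0.0362, limma), and the call was lost in 9 alternatives. Setdb1, the H3 lysine 9 methyltransferase that TRIM28 recruits, had a log2 fold change of 0.11 (adjusted p = 0.121, limma). Chd3, a remodelling ATPase of NuRD, rose from 820 ± 29.5 to 1709 ± 15. Atrx rose by 0.33 and Atf7ip, which stabilises SETDB1, by 0.24 on the log2 scale. The lowest values were those of Suv39h2 (-0.26), Mbd3 (-0.21), Uhrf1 (-0.21) and Dnmt3b (-0.20). The groups overlapped for Suv39h2 and Dnmt3b (adjusted p = 0.0281 and 0.0425, limma). Kdm1a, the gene of LSD1, was at 1257 ± 59.6 and 1227 ± 16.3, and Rcor1 had a log2 fold change of 0.08. Gfi1 and Gfi1b, zinc finger repressors that recruit LSD1, were at 65.5 ± 5.42 and 646 ± 24.6 with DMSO and at 553 ± 13.4 and 4800 ± 162 with GSK-LSD1.

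Related zinc finger families were read at the same cutoff, at which 20.5% of all genes were higher and 22.6% lower. Of 17 Zfp genes with letters after the digits, 4 were higher and 1 lower, with a median of 0.12. Of 34 Zbtb genes, 5 were higher and 3 lower (median 0.03), and of 15 Zscan and Zkscan genes 5 were higher and none lower (median 0.13). The 84 numbered Zfp genes below the cutoff had 8 higher, none lower, 45 not past the threshold and 31 not tested. Of the low ones, Zfp521, also known as Evi3 and active in early blood cells, was at 0, 0.991 and 2.99 with DMSO and at 13.3, 9.32 and 12.7 with GSK-LSD1, and it was not tested because too few libraries reached 10.

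Promoters of the members were searched on both strands, in the 250 bases before the start, for short motifs of blood cell factors. A RefSeq promoter was found for 187 of 226 members. The GFI1 core AAATCA was in 12.8% of them, against 12.7% of all 27025 promoters and 7.29% of those of tested genes. The PU.1 motif GAGGAAGT was in 1.60%, against 2.44% of all and 2.56% of those of tested genes. The C/EBP motif TTGCNNAA was in 3.74%, against 9.55% and 7.28%. The ETS family motif CGGAAGT, chosen after sequences had been seen, was in 17.1% of the members, 4.98% of all promoters and 10.9% of those of tested genes. Among the 44 higher members with a promoter it was in 6 (13.6%), and among those not past the threshold in 18.4%. Neither of the sequences printed above holds any of these motifs.

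Some values carry doubt about which gene the reads came from. For 23 members, more than 10% of the 50-base words of their transcripts also occur in those of other genes, and 5 of these were called: Zfp934, Zfp935, Zfp959, Zfp58 and Zfp617, all higher. Zfp934 lost its call in 8 alternatives, Zfp959 in 4 and Zfp617 in 1. All 50-base words of Zfp935 are shared. An exon on the other strand overlaps 62 members, of which 17 were called, among them Zfp36, Zfp106, Zfp740, Zfp90, Zfp335, Zfp639 and Zfp593. The counts under every alternative are plotted for all members.

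**Figure D5:**
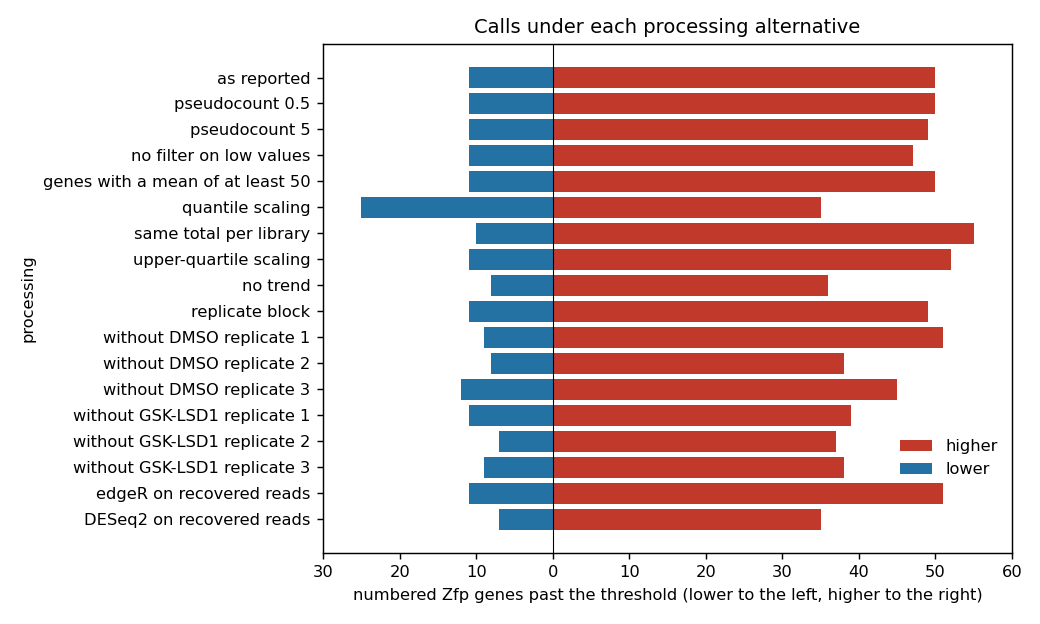
Number of numbered Zfp genes past the threshold (horizontal axis, lower to the left of 0 and higher to the right) under each processing alternative (vertical axis). As reported there are 50 higher and 11 lower, and quantile scaling gives 35 and 25.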

How the data were processed

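RNA-seq values of 3 DMSO and 3 GSK-LSD1 libraries were read from the authors' table, with groups from the labels. The deposited table holds a normalised signal for each gene symbol in each library, and within a library 100% of them were whole multiples (within 0.1) of its smallest value, so they were taken as read counts divided by a factor per library. That step lay near 1 in DMSO replicates 2 and 3 (0.991 and 0.995), where it is less clearly told from 1, and the recovered reads of these libraries rest on it. The submitters' processing notes name STAR, DESeq2, mm10 and GRCm38. For the counting program, annotation and strand setting the sources used here give nothing.

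Genes with a value of at least 10 in at least 3 libraries (11588) were tested in R 4.3.3 with limma 3.58.1. It was run two-sided on log2(value + 1) and a mean-variance trend, with Benjamini-Hochberg adjustment and a threshold of 0.05. The log2 fold changes carry that pseudocount of 1 and understate the change of low genes. The test was checked on simulated data. Libraries of a group differed by more than sampling noise (chi-square per degree of freedom 1.57 to 3.51) and were counted separately. Alternatives were pseudocounts of 0.5 and 5, no filter, a mean of at least 50, quantile, total and upper-quartile scaling, no trend, a replicate block and each library left out. edgeR 4.0.16 and DESeq2 1.42.0 on the recovered reads were added after seeing the data. A KRAB match needed 7 of 15 positions and a SCAN match 13 of 17. The members and lists were chosen with earlier results of these data known. Genes named were the 10 largest rises and falls past the threshold without overlap among genes past the cutoff in both groups, the listed genes, the 3 highest, those nearest the cutoff and those past it in 1 group only, and other names were chosen after their values were seen.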

Additional observations from a re-analysis of the deposited data

How the results depend on the processing

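Quantile scaling gave 35 numbered Zfp genes higher and 25 lower with a median log2 fold change of 0.0175, and scaling to the same total gave a median of 0.125. DESeq2 on recovered reads gave 7 lower. For KRAB genes, quantile scaling gave 15 higher, 8 lower and a median of 0.0117, DESeq2 gave 15 higher and 0 lower, and the fit without a trend 0 lower. For members without a KRAB match, quantile scaling gave 17 lower and a median of 0.0267, the same total a median of 0.0798, edgeR on recovered reads 0.0743, and the fit without a trend 14 higher. Of the TRIM28 pathway genes, 6 were lower with the same total and 2 without a trend. The causes of these shifts were not tested. edgeR called 62 members, 61 of them shared with limma (100% of limma's and 98.4% of edgeR's), and DESeq2 called 42, all shared (68.9% of limma's). Other membership rules (a mean of at least 50, a cutoff of 20 or 100, all 6 libraries, or names with letters) kept 167 to 266 genes, of which 41 to 55 were higher and 11 to 12 lower.

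Leaving out each library in turn gave 37 to 51 members higher, 7 to 12 lower and a median of 0.0889 to 0.105. For KRAB genes it gave 17 to 26 higher, 0 to 2 lower and a median of 0.123 to 0.160, and for the others 19 to 25, 7 to 10 and 0.0409 to 0.0822. TRIM28 pathway genes were 3 to 4 higher and 4 to 10 lower, and all genes 2056 to 2363 higher and 1961 to 2289 lower.

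Same-numbered libraries of the groups did not deviate together (correlations -0.0241, -0.0276 and -0.00771). No shared effect of the number was thus visible, but such a check cannot exclude that the libraries were paired. With the replicate number as a block, 49 members were higher and 11 lower.

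Sign changes occurred only for named genes that were not past the threshold, and the other end of the range without single libraries is given last for each. Zfp207 turned to 0.0368 with quantile scaling, 0.0128 with the same total, 0.000882 with upper-quartile scaling, 0.00904 without DMSO replicate 3 and 0.0215 without GSK-LSD1 replicate 1 (lowest -0.0365). Zfp706 turned to 0.00317 and 0.00139 with quantile scaling and the same total. Zfp384 turned to 0.00501 with the same total and 0.0281 without GSK-LSD1 replicate 1 (lowest -0.0501), and Zfp608 to 0.0141 without the latter (lowest -0.127). Zfp451 turned to 0.00804 without DMSO replicate 1 (lowest -0.0645), and Zfp687 to 0.0437 without it and 0.0141 without GSK-LSD1 replicate 2 (lowest -0.0824). Zfp830 turned to -0.000569 and -0.0593 without the same 2 libraries (highest 0.0979). Zfp622 turned to -0.00856 with quantile scaling, -0.0120 without DMSO replicate 2 and -0.0537 without GSK-LSD1 replicate 1 (highest 0.0506). Of the called members, 23 of 50 higher and 5 of 11 lower kept their call in every alternative.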
